A study of Rattus norvegicus with 2 samples.

Results

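Genes of enzymes that interconvert, reduce, aromatize or desulfate steroids were described in single cells of the rat hypothalamus: *Hsd17b10*, *Hsd17b11*, *Hsd17b12*, *Hsd17b14*, *Hsd11b1*, *Srd5a1*, *Cyp19a1* and *Sts*. They were listed by name as enzymes outside the set that the study itself had followed (*Hsd17b1*, *Hsd17b4*, *Hsd17b7* and *Hsd17b8*), and they are 8 of the 32883 genes in both count matrices. Each was measured in every cell barcode with at least 200 detected genes, which left 4296 Control and 4379 SC300 cells. The hypothalamic tissue, which held the AVPV and the ARC, came from female Sprague Dawley rats of 4 weeks (PND 29). AVPV and ARC are the anteroventral periventricular and arcuate nuclei, and PND is the postnatal day. The SC300 rats carried, from PND 0.5, a silicone implant that released estradiol benzoate (EB, 300 µg), an ester of estradiol. The Control rats had a capsule with oil by the methods of the study and are called intact in the sample labels. Each library came from the joined tissue of 3 rats, 1 library for each group. Rats therefore cannot be told apart in the counts, and no test between the groups was possible.

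Steroid hormones reach the brain from the ovary and the adrenal gland, and glia and neurons change them further. Enzymes of the hydroxysteroid dehydrogenase families switch hydroxyl and keto groups and so set whether a steroid can bind its receptor, while reductases lead to neuroactive steroids, aromatase makes estrogens from androgens and sulfatase frees steroids from their sulfates. Several enzymes of these families also act on fatty acids, so their transcripts are not markers of steroid conversion alone.

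The unit is the UMI (unique molecular identifier), a short random tag by which copies of a captured RNA are counted as 1. The kept cells held 51382276 UMIs in Control and 56390355 UMIs in SC300, and the median cell had 7986 and 8182. Levels are given per 1000000 UMIs (CPM) of the cells that are summed, and intervals are exact 95% intervals that cover counting error only. Cells were sorted into 14 classes by marker genes, which took in 4023 Control and 4082 SC300 cells, and the classes are called "like" the cell type whose markers they carry. The class between endothelial and mural cells carried both sets of markers. In the libraries as deposited, 9 cell barcodes occurred in both, and 7 of them were kept.

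Over all cells, *Hsd11b1* was the only member over 1.5-fold apart between the libraries, and it was higher in SC300. It had 2262 UMIs in Control and 3833 UMIs in SC300, or 44.0 and 68.0 CPM, a log2 ratio of 0.63 (interval 0.55 to 0.70). *Hsd11b1* encodes the enzyme that regenerates active glucocorticoid from its inert keto form. This was 1 of the 6 members with at least 50 UMIs, and among the 14201 genes of that depth 2.73% were over 1.5-fold higher and 3.73% were over 1.5-fold lower in SC300, with a median log2 ratio of -0.04.

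The other members with enough UMIs lay close to that median. *Hsd17b10*, a mitochondrial dehydrogenase of steroids and branched fatty acid intermediates, had 113 CPM in Control and 112 CPM in SC300 (log2 ratio -0.02, interval -0.07 to 0.03). *Hsd17b11*, a dehydrogenase found on lipid droplets, had 58.7 and 60.0 CPM (0.03, interval -0.04 to 0.10). *Hsd17b12*, an enzyme of the endoplasmic reticulum that takes part in the elongation of long fatty acids, had 146 and 140.0 CPM (-0.06, interval -0.11 to -0.01). The counts of these genes were large, so their intervals were narrow, and none came near a 1.5-fold difference. *Srd5a1*, the reductase that makes dihydrotestosterone from testosterone and opens the way from progesterone to allopregnanolone, had 17.1 and 17.9 CPM (0.06, interval -0.07 to 0.20). Without cells over 10% mitochondrial UMIs, *Srd5a1* was at -1.27 from 215 and 56 UMIs and 2 members were past 1.5-fold, and that limit left 75 Control and 16 SC300 mature oligodendrocyte-like cells, the class that held most of its UMIs. The share of all genes past 1.5-fold at that limit is not given here. *Sts*, the sulfatase of estrone sulfate and other steroid sulfates, had 19.2 and 17.2 CPM (-0.16, interval -0.29 to -0.03).

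The remaining members were at the edge of detection. *Cyp19a1*, which encodes aromatase, had 4 UMIs in Control and 6 in SC300. *Hsd17b14*, a further dehydrogenase of the same family, had 5 and 1. No ratio is given for them, since such counts leave wide intervals that reach to both sides of no difference.

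**Figure D1:**
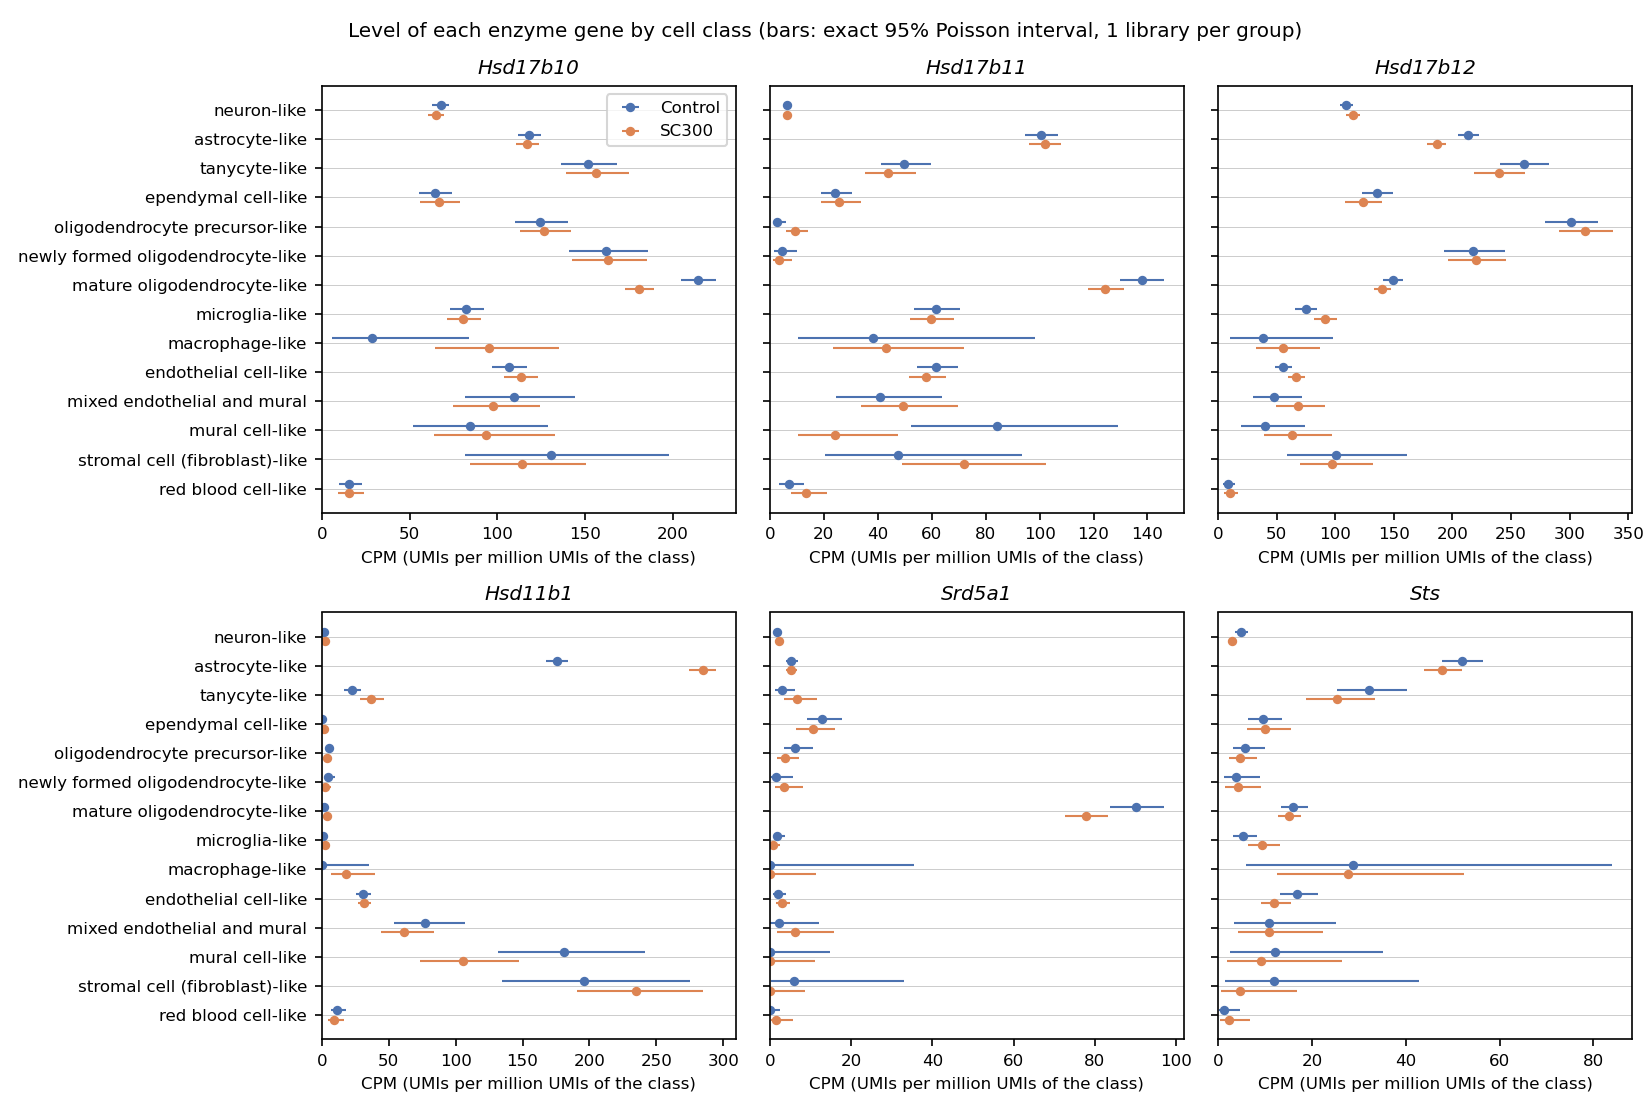
CPM of the 6 members with at least 50 UMIs (horizontal axis of each panel) in 14 cell classes (rows) for the Control library (blue) and the SC300 library (orange), with bars for exact 95% Poisson intervals. *Srd5a1* stood out in mature oligodendrocyte-like cells (90.2 and 77.8 CPM), and *Hsd11b1* was high in astrocyte-like, mural cell-like and stromal cell (fibroblast)-like cells.

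The members differed more between cell classes than between the libraries. *Hsd17b10* was present in all 14 classes and ran in Control from 15.5 CPM in red blood cell-like cells to 214 CPM in mature oligodendrocyte-like cells, with a median of 108 CPM over classes. *Hsd17b11* ran from 2.7 to 138 CPM, *Hsd17b12* from 8.38 to 301 CPM and *Sts* from 1.29 to 52.0 CPM. *Srd5a1* and *Hsd11b1* had no or few UMIs in several classes, some of them too small to show absence. In Control, the 15 macrophage-like cells had 0 CPM of both genes, with an upper limit of 35.4 CPM. The 38 mural cell-like cells had 0 CPM of *Srd5a1*, with an upper limit of 14.8 CPM. The 3′ UMIs count molecules rather than fragments, so these levels were not divided by transcript length, and they are compared between classes of cells rather than between genes.

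*Hsd11b1* was concentrated in astrocytes. Astrocyte-like cells held 80.7% of its UMIs in Control and 83.6% in SC300, though they were 30.3% and 32.5% of the cells. In Control the level was 175 CPM (interval 167 to 184) in astrocyte-like cells, 181 CPM in mural cell-like cells and 196 CPM in stromal cell (fibroblast)-like cells. These 3 classes did not differ beyond their counting error, and the last rested on 33 UMIs in 13 cells. Endothelial cell-like cells had 31.1 CPM and tanycyte-like cells, which line the floor of the third ventricle, had 22.3 CPM. Neuron-like cells were far lower, with 1.84 CPM in Control and 2.41 CPM in SC300, so that astrocyte-like cells were 95.2-fold (interval 62.7 to 152) and 118-fold (interval 82.5 to 175) higher. In ependymal cell-like cells, 0 UMIs were counted in Control and 3 in SC300.

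In astrocyte-like cells *Hsd11b1* was higher in SC300. The 1826 UMIs of Control and the 3203 UMIs of SC300 amounted to 175 and 284 CPM, a log2 ratio of 0.70 (interval 0.61 to 0.78). The share of astrocyte-like cells with at least 1 UMI was 55.8% (Clopper-Pearson interval 53.0 to 58.5) in Control and 74.3% (interval 72 to 76.6) in SC300. In microglia-like cells, taken as cells that should lack the gene, this share was 0.609% and 1.27% at a median depth of 6880 and 7472.5 UMIs, against 6300.5 and 6527 UMIs in astrocyte-like cells. With each cell thinned to 2000 UMIs, which left out 127 and 64 shallower astrocyte-like cells, the shares were 31.0% (interval 28.4 to 33.8) and 43.7% (interval 41.0 to 46.4). The higher level was spread over many cells, since the 5 cells with the most UMIs held 4.22% and 2.69% of the gene's UMIs in the class. After thinning, cells with 2 UMIs made up 6.22% of the class in Control and 11.1% in SC300, and cells with 3 UMIs 1.71% and 3.68%.

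Few genes of astrocyte-like cells had as high a ratio, counted in the higher direction only. Among 7754 genes that reached 200 UMIs in the class, 49 (0.632%) had a ratio as high as that of *Hsd11b1* or higher, and of the 10367 genes that reached 50 UMIs 2.73% were over 1.5-fold higher and 3.11% over 1.5-fold lower. The astrocyte markers that assigned the cells moved little and mostly down, from *Agt* at -0.20 to *Slc1a2* at 0.12. Their sum was 25490 CPM in Control and 23170 CPM in SC300. Markers of the other classes rich in *Hsd11b1* were low in these cells: all 7 stromal markers were detected, with sums of 7.78 and 6.93 CPM, and all 9 mural markers had sums of 116 CPM in both libraries. The summed red blood cell markers were at 1677 CPM in Control and 444 CPM in SC300, the summed ependymal markers at 549 and 288 CPM and the summed endothelial markers at 104 and 62.9 CPM, and the part of these differences in the result was not tested. *H6pd*, the enzyme that supplies the cofactor for the reductase direction, had 27 and 23 UMIs in astrocyte-like cells.

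**Figure D2:**
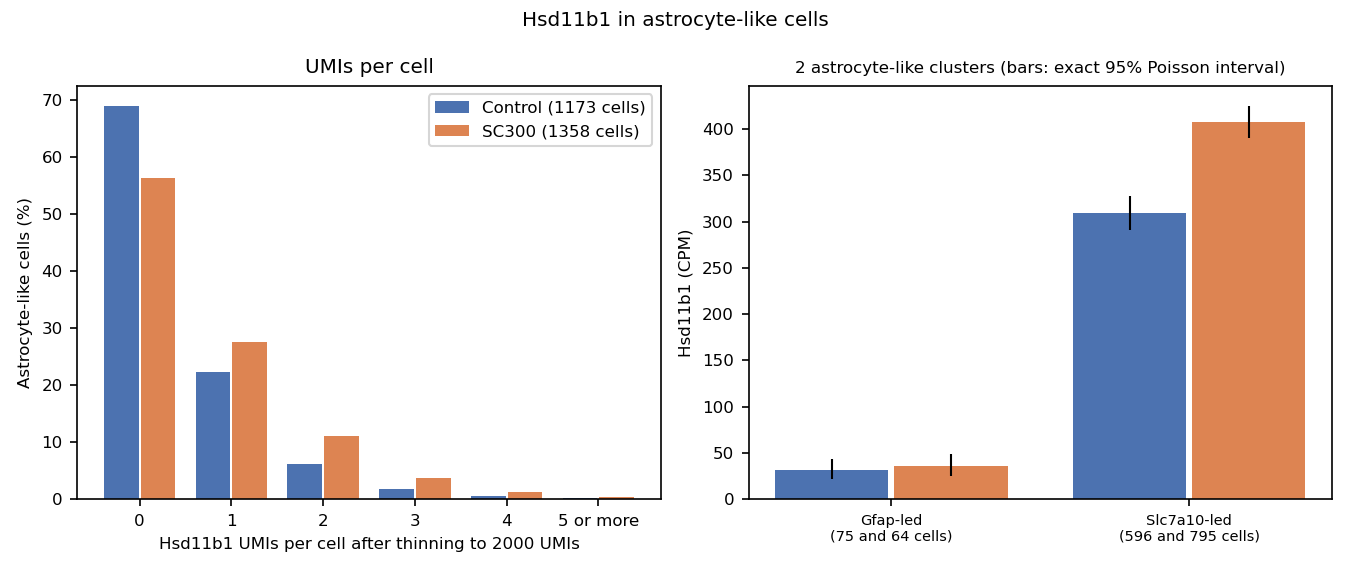
Left, share of astrocyte-like cells (%) by the number of *Hsd11b1* UMIs per cell after thinning to 2000 UMIs, for 1173 Control cells (blue) and 1358 SC300 cells (orange). Right, *Hsd11b1* CPM in 2 of the 3 astrocyte-like clusters, named by their leading gene, with exact 95% Poisson intervals. Cells without a UMI made up 69.0% in Control and 56.3% in SC300, and the *Slc7a10*-led cluster had 309 CPM in Control and 408 CPM in SC300.

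Astrocytes were not uniform in *Hsd11b1*. Cells were also clustered without any gene of the steroid lists, and 2 of the 3 clusters with astrocyte markers are given here. A cluster led by *Slc7a10* had 309 CPM in Control and 408 CPM in SC300, from 596 and 795 cells (log2 ratio 0.40, interval 0.29 to 0.50). A cluster led by *Gfap* had 31.6 and 35.4 CPM, from 36 and 39 UMIs in 75 and 64 cells (0.16, interval -0.53 to 0.86). The levels of the 2 clusters were far apart in both libraries, and the ratio of the *Slc7a10*-led cluster was below that of astrocyte-like cells as a whole. Since the other cluster is not reported here, these 2 do not show that the ratio was lower within every cluster. The 2 intervals of the ratio overlapped.

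Outside astrocytes, the ratios of *Hsd11b1* went in both directions. In tanycyte-like cells it had 52 UMIs in Control and 71 UMIs in SC300, or 22.3 and 36.7 CPM (0.72, interval 0.18 to 1.26), and the 5 cells with the most UMIs held 42.3% and 53.5% of these. In this class 5.53% of genes were over 1.5-fold higher and 7.02% lower. The class had 194 and 107 cells, and of the markers that assigned them *Crym* was higher in SC300 (0.46) and *Lhx2* (-0.18) and *Frzb* (-0.57) lower. The summed mural markers there were 567 and 1664 CPM and the summed astrocyte markers 1603 and 1466 CPM. Of the 9 mural markers, 6 were detected in Control and 5 in SC300, and 4 were higher in SC300. *Tagln*, a mural marker, was also among the leading genes of the tanycyte-like cluster. The part of these differences in the tanycyte-like ratio was not tested. In endothelial cell-like cells the level was 31.1 and 31.6 CPM (0.02, interval -0.33 to 0.38). In stromal cell (fibroblast)-like cells it was 196 and 235 CPM (0.26, interval -0.32 to 0.87). In mural cell-like cells, which surround vessels, it was 181 CPM in Control and 106 CPM in SC300, from 45 and 35 UMIs (-0.77, interval -1.45 to -0.10), in a class where 11.9% of genes were over 1.5-fold lower and 7.83% higher.

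The markers that assigned the mural cell-like class went in both directions. *Vtn*, a gene of pericytes, was lower in SC300 (log2 ratio -0.65), and the smooth muscle genes *Tagln* (1.65) and *Myh11* (5 and 84 UMIs, 3.66) were higher. Of the other markers, *Abcc9* (-0.28) was lower and *Pdgfrb* (0.48) and *Acta2* (0.57) were higher. The intervals of *Rgs5* (-0.12) and *Kcnj8* (-0.17) included no difference. The summed astrocyte markers in this class were 277 CPM in Control and 1396 CPM in SC300, the summed endothelial markers 4474 and 3170 CPM, and the summed stromal markers 3337 and 3258 CPM. The summed red blood cell markers were 630.5 CPM in Control and 17520 CPM in SC300, with 6 of 7 higher. Called doublets made up 0% and 4.35% of the class. The part of these differences in the lower *Hsd11b1* level was not tested. A cluster led by *Vtn*, *Higd1b*, *Abcc9* and *Rgs5*, which took in more cells (163 and 172) and which its marker count placed with endothelial cells, had 78.5 and 68.7 CPM of *Hsd11b1* (-0.19, interval -0.48 to 0.09). Its ratio was within 1.5-fold, and its Control level lay between those of mural cell-like (181 CPM) and endothelial cell-like cells (31.1 CPM). The cluster is not a set of mural cells alone, so it cannot show whether the lower level in mural cell-like cells holds. In mature oligodendrocyte-like cells the gene had only 11 and 41 UMIs, or 1.38 and 3.77 CPM (1.45, interval 0.46 to 2.56). The summed astrocyte markers there were 306 and 281 CPM. The mature oligodendrocyte-like cluster led by *Mal*, *Apod* and *Ermn* (339 and 419 cells) had 22 and 44 UMIs of *Hsd11b1*. Its ratio was within 1.5-fold, with an interval that included no difference (0.58, interval -0.19 to 1.39). The barcodes with under 200 genes, which were left out, held 4.82 and 3.21 CPM of *Hsd11b1*. Those values rested on 3 and 2 UMIs, with intervals of 0.99 to 14.1 and 0.39 to 11.6 CPM. The same barcodes held only 0 and 1 UMIs of *Hsd17b10*, among 622513 and 622744 UMIs in Control and SC300. Over all kept cells that gene was at 113 and 112 CPM. These barcodes are therefore not taken as a measure of RNA from outside the cells.

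*Srd5a1* was a gene of mature oligodendrocytes. These cells held 81.8% of its UMIs in Control and 83.9% in SC300, while they were 8.71% and 10.8% of the cells. Its level was 90.2 CPM (interval 83.7 to 97.0) in Control and 77.8 CPM (interval 72.7 to 83.3) in SC300, from 719 and 846 UMIs. At least 1 UMI was found in 73.8% (interval 69.0 to 78.2) and 71.1% (interval 66.8 to 75.2) of the cells, at a median of 19915 and 20879 UMIs per cell, and in 1.22% and 0.636% of microglia-like cells. The thinned shares in mature oligodendrocyte-like cells were 16.6% and 13.4%.

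Ependymal cell-like cells came next, with 12.9 and 10.5 CPM of *Srd5a1*, which were 7.0-fold (interval 5.05 to 9.98) and 7.4-fold (interval 4.81 to 12.0) lower. Astrocyte-like cells had 5.28 and 5.24 CPM and neuron-like cells 1.76 and 2.17 CPM. Earlier cells of the oligodendrocyte lineage were low too. Oligodendrocyte precursor-like cells had 6.29 and 3.8 CPM, and newly formed oligodendrocyte-like cells, which express *Enpp6* and *Bmp4*, had 1.54 and 3.5 CPM from 2 and 5 UMIs. Within the mature cells the cluster led by *Mal*, *Apod* and *Ermn* had 103 and 91.1 CPM, whereas the smaller cluster led by *Mag* and *Gng12* had 20.3 and 14.7 CPM, from 25 and 23 UMIs in 30 and 43 cells.

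**Figure D3:**
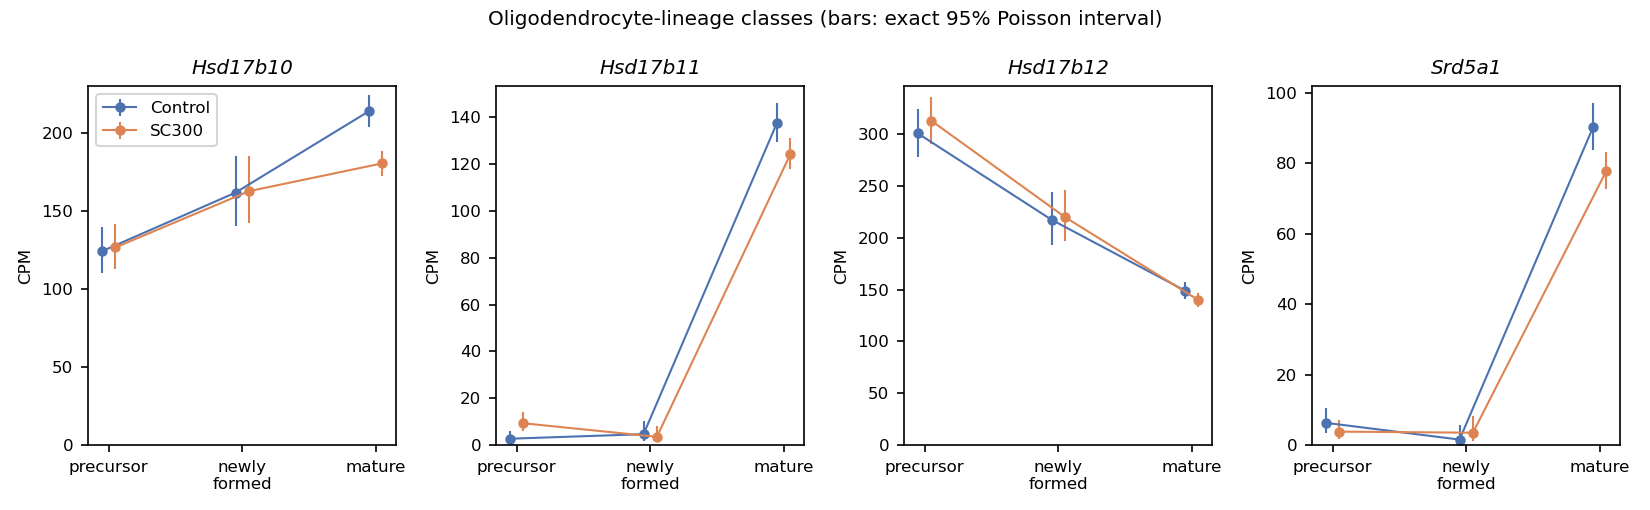
CPM of 4 members in oligodendrocyte precursor-like, newly formed and mature oligodendrocyte-like cells of the Control (blue) and SC300 (orange) libraries, with exact 95% Poisson intervals. *Srd5a1* and *Hsd17b11* were low in the first 2 classes and high in mature cells (138 and 124 CPM for *Hsd17b11*), and *Hsd17b12* ran the other way.

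The dehydrogenases were arranged differently along this lineage. *Hsd17b11* had 2.7 and 9.30 CPM in precursor-like cells, 4.63 and 3.5 CPM in newly formed cells and 138 and 124 CPM in mature cells. The mature cells were 51.1-fold (interval 23.4 to 140) above precursor-like cells in Control and 13.4-fold (interval 8.80 to 21.4) in SC300, and the precursor-like values rested on 6 and 22 UMIs. *Hsd17b10* was already at 124 and 127 CPM in precursor-like cells and at 162 and 163 CPM in newly formed cells, and it reached 214 and 181 CPM in mature cells, 1.72-fold and 1.43-fold above the precursors. *Hsd17b12* had the opposite order, with 301 and 313 CPM in precursor-like, 218 and 220 CPM in newly formed and 149 and 140.0 CPM in mature cells. Precursor-like cells were 2.02-fold (interval 1.83 to 2.22) and 2.24-fold (interval 2.05 to 2.44) above mature cells.

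Mature oligodendrocyte-like cells thus had the highest level of *Srd5a1*, *Hsd17b10* and *Hsd17b11*, and in each the SC300 library was slightly lower. For *Hsd17b10* in SC300 the interval (173 to 189 CPM) overlapped that of newly formed oligodendrocyte-like cells (143 to 185 CPM). The log2 ratio was -0.21 (interval -0.36 to -0.07) for *Srd5a1*, -0.25 (interval -0.34 to -0.15) for *Hsd17b10* and -0.15 (interval -0.26 to -0.03) for *Hsd17b11*. None was over 1.5-fold, and in this class 2.77% of 8655 genes were over 1.5-fold lower and 2.33% higher. The markers of the class ran from -0.16 for *Opalin* to 0.12 for *Mag*.

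Since *Srd5a1*, *Hsd17b10* and *Hsd17b11* shared their highest class, the 250 bases before their annotated starts are shown to set a gene read mainly in 1 class beside one read in all classes. The sequences are those of RefSeq for the rat assembly GRCr8, which is not the annotation used for the counts, and 5 of the 8 members were in that table, without *Hsd11b1*, *Hsd17b14* and *Cyp19a1*. They run 5′ to 3′ on the strand of the gene, the plus strand for all 3, and capitals mark a GC box (GGGCGG or its reverse complement). *Srd5a1* lies at chr1:35514664-35514913, *Hsd17b10* at chrX:24568301-24568550 and *Hsd17b11* at chr14:6016440-6016689.
Srd5a1: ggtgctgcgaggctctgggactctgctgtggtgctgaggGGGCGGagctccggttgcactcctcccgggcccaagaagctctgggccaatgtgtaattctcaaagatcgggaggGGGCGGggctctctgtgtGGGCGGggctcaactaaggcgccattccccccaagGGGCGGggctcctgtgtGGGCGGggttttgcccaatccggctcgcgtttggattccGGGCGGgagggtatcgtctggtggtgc
Hsd17b10: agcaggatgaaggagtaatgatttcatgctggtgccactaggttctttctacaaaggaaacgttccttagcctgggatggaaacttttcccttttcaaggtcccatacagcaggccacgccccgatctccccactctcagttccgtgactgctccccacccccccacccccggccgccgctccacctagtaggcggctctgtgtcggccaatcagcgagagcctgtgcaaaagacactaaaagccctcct
Hsd17b11: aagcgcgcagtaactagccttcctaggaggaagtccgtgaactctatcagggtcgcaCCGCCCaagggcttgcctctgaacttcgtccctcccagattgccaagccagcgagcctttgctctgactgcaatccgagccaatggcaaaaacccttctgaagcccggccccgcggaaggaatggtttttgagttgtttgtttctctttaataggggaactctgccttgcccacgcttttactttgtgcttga
The GC box occurred 6 times before *Srd5a1*, 0 times before *Hsd17b10* and 1 time before *Hsd17b11*, and 32.4% of 27457 such windows held it. The CCAAT box (CCAAT, both strands) occurred 2, 1 and 1 times and in 34.3% of windows, and the TATA box (TATAAA, both strands) in none of the 3 and in 13.1% of windows. A full estrogen response element (AGGTCA, any 3 bases, TGACCT, which reads the same on both strands) was in none of them and in 1 of the 27457 windows. Of the other members in that table, *Sts* had 4 GC boxes and *Hsd17b12* 1, and both genes had UMIs in all 14 classes. None of these motifs holds another, and a match or its lack in this window is a description of letters only.

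*Hsd17b12* was highest in oligodendrocyte precursor-like cells. After these came tanycyte-like cells (261 CPM in Control and 239 CPM in SC300), newly formed oligodendrocyte-like cells and astrocyte-like cells (214 and 186 CPM). In Control each of these neighbours overlapped the next in its interval. Tanycyte-like cells were 1.92-fold (interval 1.69 to 2.19) and 1.94-fold (interval 1.66 to 2.27) above ependymal cell-like cells, which line the same ventricle. Neuron-like cells had 109 and 115 CPM.

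The ratio of *Hsd17b12* had different signs in different classes, although no class ratio from at least 50 UMIs was over 1.5-fold. In astrocyte-like cells it was lower in SC300, with 2223 and 2099 UMIs (log2 ratio -0.20, interval -0.28 to -0.11). In microglia-like cells it had 255 and 321 UMIs, or 74.8 and 91.1 CPM (0.29, interval 0.04 to 0.53). In endothelial cell-like cells it had 226 and 317 UMIs, or 55.4 and 66.4 CPM (0.26, interval 0.01 to 0.51). The 2 higher ratios had intervals that came within 0.04 of no difference. By cluster, the *Cldn5*-led endothelial cell-like cluster was at 0.06 (interval -0.26 to 0.38) and the *Tmem119*-led microglia-like cluster at 0.40 (interval 0.01 to 0.80). The *Gfap*-led astrocyte-like cluster was higher in SC300 (0.26, interval 0.02 to 0.50) and the *Slc7a10*-led one lower (-0.23, interval -0.39 to -0.08).

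*Hsd17b11* was also a gene of astrocytes, with 101 and 102 CPM, and it was scarce in neurons, with 6.45 and 6.18 CPM. Astrocyte-like cells were 15.6-fold (interval 12.4 to 19.9) and 16.5-fold (interval 13.1 to 21.0) above neuron-like cells. It was present in microglia-like cells (61.6 and 59.6 CPM) and endothelial cell-like cells (61.8 and 58.0 CPM), which did not differ beyond their intervals. *Hsd17b10* in contrast had 67.6 and 64.8 CPM in neuron-like cells and 118 and 117 CPM in astrocyte-like cells.

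*Sts* was highest in astrocyte-like cells. Astrocyte-like cells had 52.0 and 47.8 CPM and held 54.8% and 55.4% of its UMIs, and 32.4% (interval 29.8 to 35.0) and 29.5% (interval 27.2 to 32.0) of them had at least 1 UMI, against 3.04% and 6.57% of microglia-like cells. Tanycyte-like cells had 32.1 and 25.3 CPM, 1.62-fold (interval 1.27 to 2.09) and 1.89-fold (interval 1.41 to 2.58) below astrocyte-like cells. Macrophage-like cells had 28.8 and 27.6 CPM from 3 and 9 UMIs, within the intervals of tanycyte-like cells. Ependymal cell-like cells had 9.49 and 10.0 CPM. The *Slc7a10*-led astrocyte cluster had 68.6 and 58.5 CPM of *Sts* and the *Gfap*-led cluster 36.8 and 37.2 CPM.

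In neuron-like cells *Sts* had 58 UMIs in Control and 36 UMIs in SC300, or 4.86 and 2.89 CPM (log2 ratio -0.75, interval -1.39 to -0.12). In this class 2.98% of genes were over 1.5-fold lower and 3.14% higher. The summed astrocyte markers in neuron-like cells were also lower in SC300, 118 against 205 CPM with all 9 lower, and their part in the *Sts* value was not tested. GABAergic cells had 32 and 24 *Sts* UMIs (-0.32, interval -1.145 to 0.49), and glutamatergic cells 9 and 5 (-0.96, interval -2.885 to 0.77). Cells with markers of both kinds had 15 and 6 (-1.81, interval -3.47 to -0.37). Shares of all genes past 1.5-fold in these groups of neurons are not given here. In microglia-like cells *Sts* had 18 and 33 UMIs, or 5.28 and 9.37 CPM (0.83, interval -0.04 to 1.74), in a class where 2.49% of genes were over 1.5-fold higher and 4.16% lower. In the classes with the most UMIs the ratio was small, at -0.12 (interval -0.30 to 0.05) in astrocyte-like cells and -0.09 (interval -0.43 to 0.26) in mature oligodendrocyte-like cells.

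**Figure D4:**
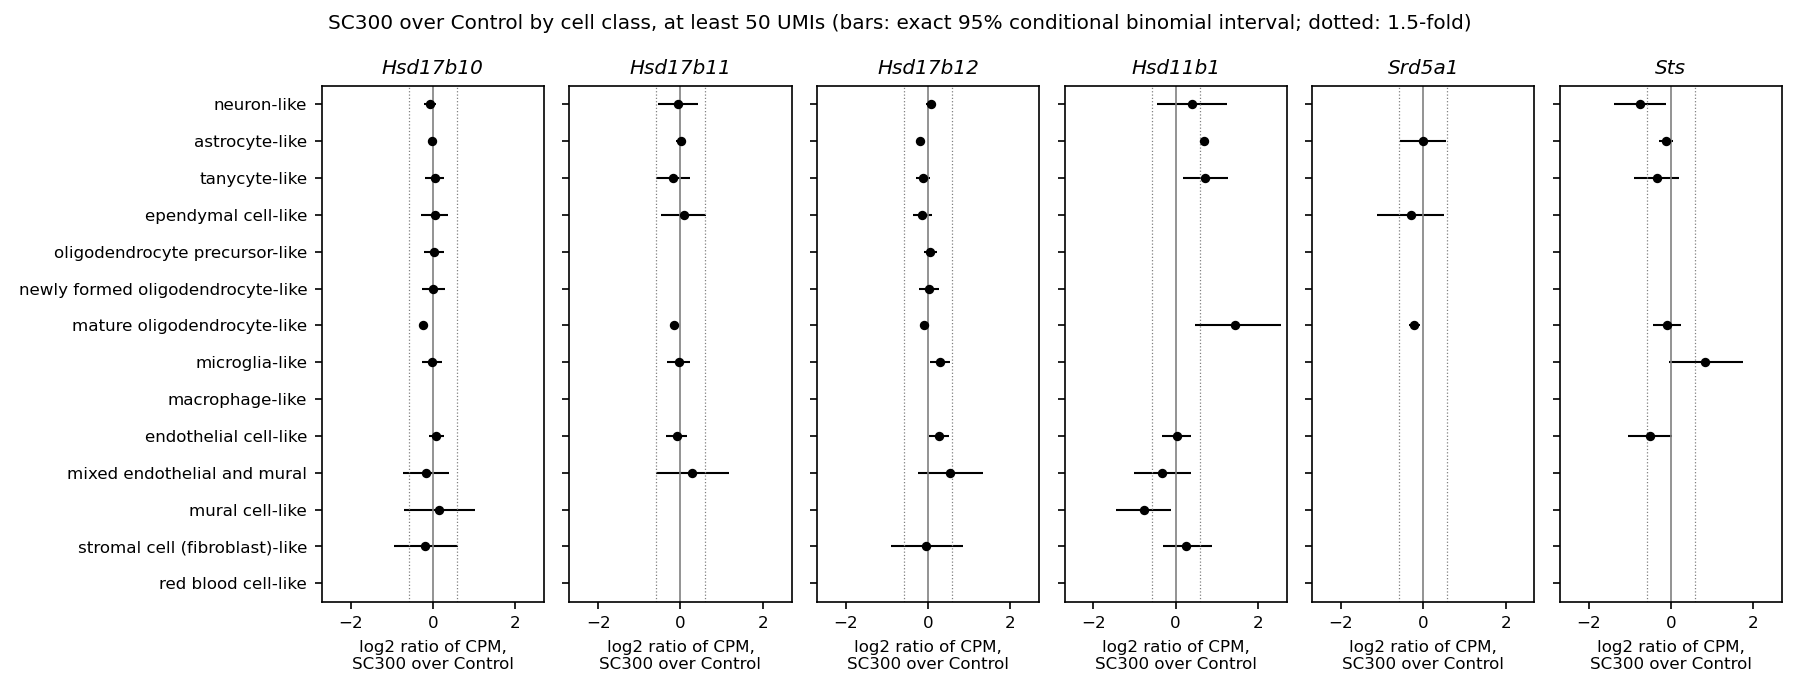
Log2 ratio of CPM, SC300 over Control, of the 6 members in each class where the gene had at least 50 UMIs over both libraries, with exact 95% conditional binomial intervals and dotted lines at 1.5-fold. Most points lay between the dotted lines. *Hsd11b1* was past the right line in astrocyte-like (0.70), tanycyte-like (0.72) and mature oligodendrocyte-like (1.45) cells and past the left line in mural cell-like cells (-0.77).

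Counted over all classes, 48 ratios of a member in a class rested on at least 50 UMIs, and 6 of them were over 1.5-fold apart. They were *Hsd11b1* in 4 classes and *Sts* in 2, with 4 higher and 2 lower in SC300. Over every gene and class with as many UMIs 4.08% of ratios were over 1.5-fold higher and 4.18% over 1.5-fold lower. In these classes, all ratios of *Hsd17b10*, *Hsd17b11*, *Hsd17b12* and *Srd5a1* that rested on 50 UMIs or more stayed within 1.5-fold. Clusters and parts of a class are not counted. A ratio from fewer UMIs is not counted here, such as *Hsd17b11* in mural cell-like cells with 21 and 8 UMIs (-1.80, interval -3.19 to -0.57) or in oligodendrocyte precursor-like cells (1.79, interval 0.44 to 3.38).

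Aromatase was found in neurons only, as far as its counts reach. All 10 *Cyp19a1* UMIs lay in neuron-like cells. In Control they came from 3 glutamatergic cells, which had *Slc17a6* and no *Gad1*, *Gad2* or *Slc32a1* UMIs. In SC300 they came from 4 GABAergic cells, which had *Gad1*, *Gad2* and *Slc32a1* and no *Slc17a6* UMIs, and from 1 glutamatergic cell. With at most 2 UMIs in a cell, a difference between the libraries was not detectable at this depth. *Hsd17b14* had 6 UMIs in 6 cells, of which 3 were GABAergic neuron-like, 2 astrocyte-like and 1 ependymal cell-like.

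Among neurons, *Hsd17b10* was higher in GABAergic than in glutamatergic cells. It had 74.1 CPM in 282 GABAergic and 52.3 CPM in 126 glutamatergic cells of Control, and in SC300 the levels were 72.1 and 51.1 CPM. For *Hsd17b12* the levels were 114 and 96.0 CPM in Control, and in SC300 they were 122 and 105 CPM. Both genes had the higher level in GABAergic cells in both libraries. The intervals of *Hsd17b10* did not overlap in either library (67.9 to 80.7 against 44.6 to 61.0 CPM in Control), and those of *Hsd17b12* did. Cells with markers of both kinds (49 in Control and 61 in SC300) had 71.0 and 63.4 CPM of *Hsd17b10*. Their intervals overlapped those of GABAergic and of glutamatergic cells. *Hsd17b11* had 52 and 31 UMIs in GABAergic cells (log2 ratio -0.65, interval -1.34 to 0.02). In glutamatergic cells it had 14 and 30 UMIs (0.99, interval 0.03 to 2.02). Shares of all genes past 1.5-fold in these cells are not given here.

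The genes whose levels over the 14 classes were most like those of each member were named by Pearson's r of log2(CPM + 1). Both libraries were summed, and 11908 genes with at least 200 UMIs outside the marker lists were ranked. Marker genes of the classes could therefore not be named. The classes share libraries and differ in depth, so r is a description. *Hsd11b1* was most like *Fbln5* (0.94), *Tmem51* (0.92) and *Mmp14* (0.92). *Srd5a1* was most like *Cyp2j10* (0.91), *Mal* (0.89), a protein of compact myelin, and LOC361016 (0.89). *Sts* was most like *Pnpla7* (0.83), *Grifin* (0.82) and *Fads1* (0.80), a fatty acid desaturase. *Hsd17b10* was most like *Tkt* (0.96), *Tmem59* (0.96) and *Bet1l* (0.96), *Hsd17b11* was most like *Slc4a2* (0.90), *Pla2g16* (0.89) and *Pon2* (0.89), and *Hsd17b12* was most like *Mrpl45* (0.98), *Itgae* (0.97) and *Tmem147* (0.97).

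The other genes of steroid synthesis, reduction, sulfation and hydroxylation gave a similar picture to the members. Of 40 listed genes, 3 were not in the files and 24 had at least 50 UMIs over all cells. Of these 11 were higher and 13 lower in SC300, with a median log2 ratio of -0.04, the same as that of all genes. Over 1.5-fold higher were 3 of them, against 2.73% of all genes, and 0 were over 1.5-fold lower. The 3 included *Akr1c19* and *Cyp1b1*. Of the enzymes early in steroid synthesis, picked after their values were seen, *Cyp11a1*, which cleaves the side chain of cholesterol, had 34 and 36 UMIs and *Cyp17a1* 0 and 1. The study's own set showed no gene over 1.5-fold, and *Hsd17b4*, a peroxisomal enzyme also picked after its value was seen, had the lowest ratio among them, with 108 and 90.5 CPM (-0.25, interval -0.31 to -0.20).

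*Akr1c19*, an aldo-keto reductase, had 113 and 194 UMIs (0.65, interval 0.30 to 0.99), and stromal cell (fibroblast)-like cells held 2 and 32 of them while mature oligodendrocyte-like cells held 61 and 53. *Cyp1b1*, a hydroxylase of estrogens, had 23 and 59 UMIs (1.22, interval 0.51 to 1.99), of which stromal cell (fibroblast)-like cells held 12 and 41. This class had 13 cells in Control and 36 in SC300, and its level of *Cyp1b1* was 71.2 and 95.2 CPM (0.42, interval -0.54 to 1.48).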

How the data were processed

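Single-cell RNA libraries of pooled hypothalamus were read, 1 Control and 1 SC300. Per the sample labels and the methods, the authors made them by droplet-based 3′ sequencing, aligned reads to the Ensembl96 transcriptome, counted with Cell Ranger (3.0.1 in the submitters' processing notes) and deposited UMI counts per gene and barcode without normalization. A merge of the samples is named in the methods, and whether it altered the deposited counts is not given in the sources used here. Of 4488 and 4524 deposited barcodes, the numbers that the series' design text also gives, those with at least 200 detected genes were kept. The paper's methods give these barcode numbers as the cells analyzed, and in another place count fewer cells than were kept here.

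The members, the pathway list, the markers and the gate were chosen with earlier results of these data known. A barcode joined a class when at least 2 markers were detected and its mean marker level, relative to the 40 leading cells, was at least 0.1 and 1.25 times that of the next class. Barcodes between endothelial and mural cells formed a class of their own, and 6.57% joined none. Of 8105 assigned cells, 302 were within 1.5 times of another class. Some cells of the tanycyte cluster fell into the ependymal cell-like class, and names need not match those of the study. Doublets (70 and 73 barcodes by Scrublet) were kept. Clusters used 2000 variable genes, less 4 of the steroid lists, 30 principal components and a resolution of 0.7.

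UMIs were summed per class and scaled to CPM, and ratios are SC300 over Control (for shares over all genes, 0.5 was added to each count). With 1 library per group no test was made. Intervals are exact (Poisson, Clopper-Pearson, conditional binomial). Every member was named, with pathway genes over 1.5-fold over all cells and the 3 genes most like each member with at least 200 UMIs. Ratios and intervals were tested on simulated Poisson counts. Such counts have the counting error that the intervals assume and no spread between cells or rats, so they cannot show how the intervals hold under that spread. Python 3.11.15, numpy 2.4.6, scipy 1.17.1, pandas 2.3.3 and scanpy 1.11.5 were used. Of what this rule and the clusters gave, 1 pathway gene and 1 astrocyte-like cluster are not reported here.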

Additional observations from a re-analysis of the deposited data

Results flagged for a closer look

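The ratio of SC300 over Control went in opposite directions in different cell classes for 2 of the members, with intervals on either side of 0. The difference between the classes was not tested, since each group has 1 library.

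For *Hsd11b1* the log2 ratio was 0.70 in astrocyte-like, 0.72 in tanycyte-like and 1.45 in mature oligodendrocyte-like cells, and -0.77 in mural cell-like cells. The mural value rests on 38 and 46 cells and the mature oligodendrocyte value on 11 and 41 UMIs. In the larger cluster led by *Vtn*, which its marker count placed with endothelial cells, the ratio was -0.19. In the mature oligodendrocyte-like cluster led by *Mal*, *Apod* and *Ermn* the ratio was 0.58 (interval -0.19 to 1.39).

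For *Hsd17b12* the log2 ratio was -0.20 in astrocyte-like cells, 0.29 in microglia-like cells and 0.26 in endothelial cell-like cells. These signs did not hold in every cluster. The *Gfap*-led astrocyte-like cluster was at 0.26 (interval 0.02 to 0.50) and the *Slc7a10*-led one at -0.23. The *Cldn5*-led endothelial cell-like cluster was at 0.06 (interval -0.26 to 0.38), and the *Tmem119*-led microglia-like cluster at 0.40 (interval 0.01 to 0.80).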

How the results depend on the processing

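No paired analysis was possible because both libraries carry the same single replicate number and each group has 1 library, and no replicate could be left out. Over all cells, *Hsd11b1* was over 1.5-fold higher under every setting tried, with log2 ratios from 0.60 to 0.72, including 0.70 with every cell weighted alike. In astrocyte-like cells it ran from 0.62 to 0.74. In the *Gfap*-led and *Slc7a10*-led clusters it was 0.16 and 0.40, a split added after seeing the data. A further astrocyte-like cluster is not reported here, so these values do not bound the ratio over clusters. Leaving out cells over 20% mitochondrial UMIs moved *Hsd17b12* to -0.013 over all cells. A limit of 10% kept 1273 and 890 cells, with 75 and 16 mature oligodendrocyte-like cells, and moved the ratios over all cells of *Hsd17b10* to -0.46, *Hsd17b11* to -0.28, *Hsd11b1* to 0.72 and *Srd5a1* to -1.27. The members past 1.5-fold then numbered 2 rather than 1, and the class ratios past it 12 rather than 6. Without the 5 cells with most UMIs of a gene the class ratios past 1.5-fold numbered 12, and with cells thinned to 2000 UMIs 11, both added after seeing the data. Shares of all genes past 1.5-fold at the 10% limit or under these settings are not given here, and some of these ratios rested on few UMIs. The counts are therefore not read as a result about the members. With at least 200 UMIs, 1.51% of all genes were over 1.5-fold higher and 2.32% lower. The sign turned for *Hsd11b1* in mature oligodendrocyte-like cells when thinned (-0.36, 1 UMI in each library), for *Sts* in neuron-like cells at the 10% limit (1.09, from 5 and 6 UMIs) and for *Sts* in microglia-like cells when thinned (-0.25, from 6 and 5 UMIs), and the cause was not tested beyond these counts. The highest class was kept for 5 of 6 members with every cell weighted alike and with clusters, where *Hsd11b1* was highest in stromal cell (fibroblast)-like cells. By the share of cells with a UMI, thinning kept the highest class of 4 of 6 members, and *Hsd17b12* then moved to oligodendrocyte precursor-like and *Hsd11b1* to stromal cell (fibroblast)-like cells. No cluster was named mural cell-like by its markers, and the *Vtn*-led cluster, named endothelial cell-like, had a ratio of -0.19 for *Hsd11b1*. With 1 library per group the spread between rats is unknown, and no setting tried here shows it.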
